A study of Mus musculus with 4 samples.

Results

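Tachykinins are short neuropeptides cut from larger precursor proteins, and they act on G protein-coupled receptors that signal mainly through Gq and phospholipase C. The genes described are Tac1 and Tac2, which encode precursors, and Tacr1 and Tacr3, which encode receptors. They were taken by symbol from the Ensembl identifiers of a raw count matrix, and these 4 genes were among 53465 identifiers. RNA was sequenced from lateral habenula tissue of socially isolated C57BL/6 mice (2 libraries) and of group-housed C57BL/6 mice (2 libraries). The strain was shared by both groups, and no transgene or drug is named in the labels. The series title describes the isolation as acute, and the sources used here give neither its length nor the age and sex of the mice nor any pooling of animals. The p-values therefore measure only the spread between these libraries, which may be technical.

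Substance P prefers the NK1 receptor, the product of Tacr1, and neurokinin B prefers the NK3 receptor, the product of Tacr3. Neurokinin A prefers the NK2 receptor, the product of Tacr2. Mouse Tac2 is the counterpart of human TAC3. The lateral habenula lies beside the medial habenula, where substance P neurons occupy the dorsal part, cholinergic neurons the ventral part, and Tac2 is a widely used marker. Prolonged isolation of mice is known to raise Tac2 in several other brain regions.

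The precursor transcripts are told apart by the stretches that encode their active peptides, which are shown because they define what each gene supplies. Tac1 encodes both substance P and neurokinin A, and Tac2 encodes neurokinin B. Capitals mark the 15 bases that encode the shared C-terminal motif of the family, phenylalanine-X-glycine-leucine-methionine. The lower-case bases before it encode the rest of the peptide, and those after it the amidation glycine and a pair of basic residues where the precursor is cut. The stretches lie at chr6:7556732-7556773 for substance P, chr6:7559101-7559139 for neurokinin A and chr10:127729116-127729154 for neurokinin B, all on the plus strand of GRCm38 and each within a single coding exon of GENCODE M21.
substance P: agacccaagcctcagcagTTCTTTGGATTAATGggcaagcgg
neurokinin A: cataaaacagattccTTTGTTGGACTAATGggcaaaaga
neurokinin B: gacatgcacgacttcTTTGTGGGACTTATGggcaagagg
Of the 15 motif bases, 13 were identical between neurokinin B and neurokinin A, 12 between neurokinin A and substance P and 10 between neurokinin B and substance P. The substance P stretch was present in 3 of 4 coding Tac1 transcripts of the annotation and the neurokinin A stretch in 2 of 4. The coding transcript with neither stretch is annotated with only 15 residues, against 112 to 130 in the others. Neurokinin B was encoded by 2 of 2 coding Tac2 transcripts. The deposited counts are per gene, so they do not separate Tac1 transcripts with and without the neurokinin A exon.

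Tac1 (ENSMUSG00000061762) spans bases 7554879 to 7565834 of chromosome 6 and Tac2 (ENSMUSG00000025400) bases 127724478 to 127731768 of chromosome 10. Tacr1 (ENSMUSG00000030043) spans bases 82402334 to 82560104 of chromosome 6 and Tacr3 (ENSMUSG00000028172) bases 134829007 to 134934579 of chromosome 3. All 4 are protein-coding genes on the plus strand, and 0 annotated genes overlap their exons on either strand.

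The libraries held 25985591 to 26428152 counts in isolated and 20897605 to 25640860 in group-housed mice. Of all identifiers 17528 passed the low-count filter of edgeR, the 4 tachykinin genes among them. The isolated libraries were set against the group-housed ones in edgeR's quasi-likelihood test, with p-values adjusted by Benjamini-Hochberg over all 17528 genes and a threshold of 0.05. This test called 2 genes, both higher, which is 0.0114% of those tested. That count changed with the setting and with the library left out, as described in the last section. At an unadjusted p below 0.05 it found 893 genes (5.09%), of which 496 were higher (2.83% of those tested). The groups were separated, with the isolated libraries on top, for 3052 genes (17.4%), and with the group-housed libraries on top for 2850 (16.3%). The median log2 fold change, isolated over group-housed, was 0.0033 over all genes tested.

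None of the 4 tachykinin genes passed this test. Tac2 and Tacr1 were higher in both isolated libraries than in both group-housed ones, by a fitted fold of 1.35 for Tac2 and 1.24 for Tacr1. Tac1 and Tacr3 overlapped between the groups. At an unadjusted p below 0.05 stood 2 of the 4, Tac2 and Tacr1, and their adjusted p-values were 0.366 and 0.684 in the edgeR quasi-likelihood test. Over the 4 members the log2 fold change had a median of 0.24.

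**Figure D1:**
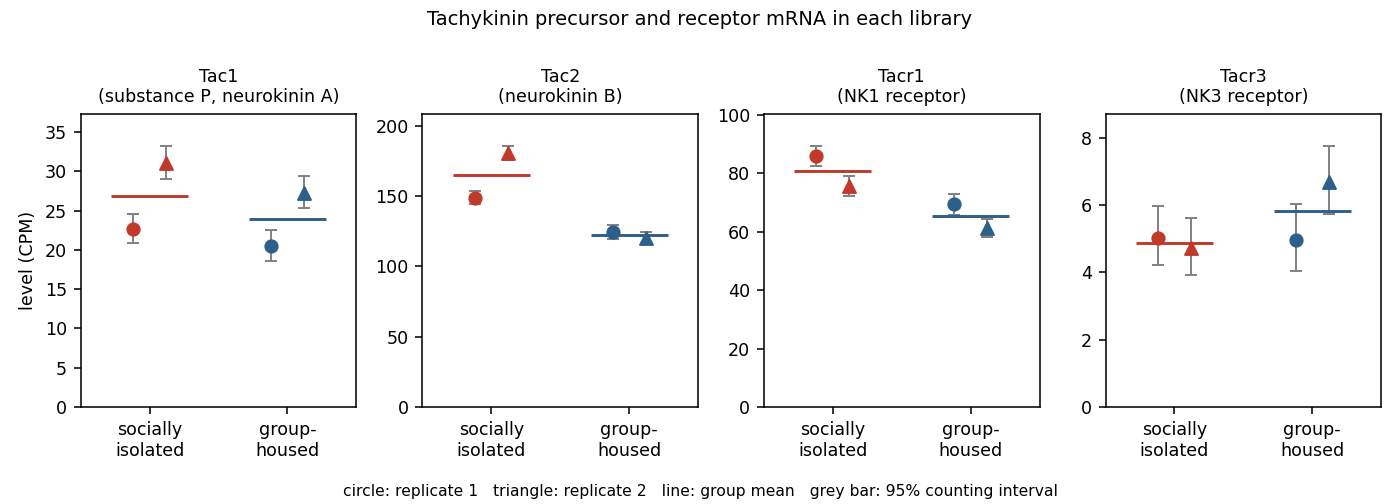
Level of Tac1, Tac2, Tacr1 and Tacr3 in counts scaled to a common library total (CPM) in each of 2 socially isolated (red) and 2 group-housed (blue) libraries. Grey bars are 95% Poisson intervals of the count and horizontal lines are group means. Tac2 and Tacr1 lay higher in both isolated libraries, and Tac1 and Tacr3 overlapped.

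Levels per kilobase of exon (RPKM) put Tac2 first, followed by Tacr1, Tac1 and Tacr3. Tac2 stood at 120 ± 16.4 RPKM in isolated and 88.7 ± 2.38 RPKM in group-housed libraries (SD, n = 2 each). Its level was 8.16 to 11.3 times that of Tacr1 within a library, and it exceeded 98.5% of the genes tested. Tacr1 measured 12.4 ± 1.11 RPKM in isolated and 10.1 ± 0.877 RPKM in group-housed libraries (SD, n = 2 each). Tac1 measured 7.91 ± 1.75 RPKM in isolated and 7.03 ± 1.40 RPKM in group-housed libraries (SD, n = 2 each). Tacr1 exceeded Tac1 in each of the 4 libraries, by 1.18 to 1.98 times, the closest pair of neighbours in this order. Tacr3 was the least abundant member, at 1.30 ± 0.0577 RPKM in isolated and 1.55 ± 0.323 RPKM in group-housed libraries (SD, n = 2 each), and Tac1 stood 4.51 to 7.29 times higher per length.

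**Figure D2:**
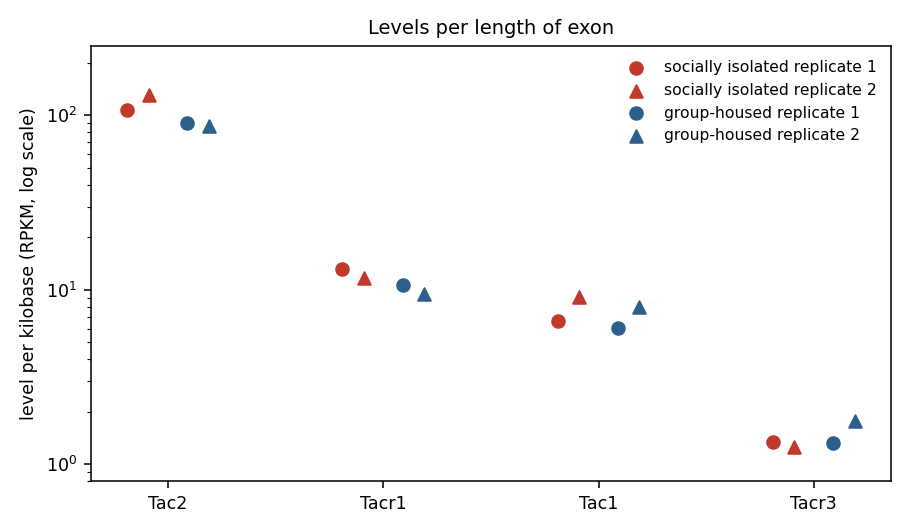
Level per kilobase of exon (RPKM, log scale) of each gene in 2 socially isolated (red) and 2 group-housed (blue) libraries, ordered from highest to lowest. Tac2 lay between 87.0 and 131 RPKM, and the ranges of the 4 genes did not overlap.

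Among the precursors, Tac2 had 148.8 and 180.8 CPM in isolated replicates 1 and 2, against 124.6 and 119.9 CPM in group-housed replicates 1 and 2. Both isolated libraries were higher, and isolated replicate 2 was the highest of the 4. The means were 165 ± 22.6 CPM in isolated and 122 ± 3.28 CPM in group-housed libraries (SD, n = 2 each). The log2 fold change was 0.43 (SE 0.09, 95% interval 0.22 to 0.64), with an unadjusted p = 0.00123 and an adjusted p = 0.366 in the edgeR quasi-likelihood test. By that p it ranked 59 of 17528 genes, and 92.9% of the genes tested had a smaller absolute log2 fold change. The call depended on the setting. Without isolated replicate 1 Tac2 passed as higher (log2 fold change 0.56, edgeR adjusted p = 0.00413), and it also passed in DESeq2 (adjusted p = 0.0162) and in edgeR's exact test (adjusted p = 0.00737). Over all 13 alternatives its log2 fold change lay between 0.28 and 0.56 and its adjusted p between 0.00413 and 0.9995.

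Tac1 had 22.7 and 31.1 CPM in isolated replicates 1 and 2, against 20.5 and 27.3 CPM in group-housed replicates 1 and 2. The groups overlapped, since isolated replicate 1 lay below group-housed replicate 2. The means were 26.9 ± 5.95 CPM in isolated and 23.9 ± 4.77 CPM in group-housed libraries (SD, n = 2 each). Replicates of a group differed by more than counting error: the 95% Poisson intervals were 20.9 to 24.6 and 29.0 to 33.3 CPM in the isolated libraries and 18.6 to 22.6 and 25.3 to 29.4 CPM in the group-housed ones. The log2 fold change was 0.16 (SE 0.17, 95% interval -0.22 to 0.55, edgeR adjusted p = 0.9998). Left out in turn, isolated replicate 2 gave -0.083 and group-housed replicate 1 gave -0.02, so its direction changed with the library left out. Omission of isolated replicate 1 gave 0.37 and of group-housed replicate 2 gave 0.38. With the replicate number as a block it was 0.17 (SE 0.09, blocked edgeR adjusted p = 0.682), and the labels do not say that the number pairs libraries.

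Tac1 counts were 0.152 and 0.172 of the Tac2 counts in isolated replicates 1 and 2, against 0.165 and 0.227 in group-housed replicates 1 and 2. This ratio is free of scaling between libraries. Its log2 mean was -2.63 ± 0.124 in isolated and -2.37 ± 0.329 in group-housed libraries (SD, n = 2 each), a difference of -0.26. It was -0.026 when group-housed replicate 2 was left out and -0.49 when group-housed replicate 1 was. The groups overlapped, and a 2-sided exact permutation test gave p = 0.667. With 2 libraries a group that test cannot go below 0.333.

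The remaining precursor gene, Tac4, which encodes hemokinin-1, had 0 and 1 counts in isolated and 0 and 0 counts in group-housed libraries. A count of 0 allows up to 3 counts, which is 0.113 to 0.114 CPM in isolated and 0.117 to 0.146 CPM in group-housed libraries, for counting error only. Tac4 stayed under that limit in all 4 libraries and was not tested.

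Among the receptors, Tacr1 had 85.9 and 75.7 CPM in isolated replicates 1 and 2, against 69.4 and 61.3 CPM in group-housed replicates 1 and 2. Both isolated libraries were higher, and the lower isolated library stood above the higher group-housed one by less than the gap between the isolated replicates. The means were 80.8 ± 7.22 CPM in isolated and 65.3 ± 5.69 CPM in group-housed libraries (SD, n = 2 each). The log2 fold change was 0.31 (SE 0.09, 95% interval 0.11 to 0.50), with an unadjusted p = 0.00633 and an adjusted p = 0.684 in the edgeR quasi-likelihood test. It stayed between 0.21 and 0.40 over 13 alternatives and passed in none of them (adjusted p 0.053 to 0.9995).

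Tacr3 had 5.03 and 4.72 CPM in isolated replicates 1 and 2, against 4.97 and 6.69 CPM in group-housed replicates 1 and 2. Group-housed replicate 2 was the highest library, and the remaining libraries lay close together. The means were 4.87 ± 0.217 CPM in isolated and 5.83 ± 1.22 CPM in group-housed libraries (SD, n = 2 each). The log2 fold change was -0.27 (SE 0.19, 95% interval -0.70 to 0.17, edgeR adjusted p = 0.999). Without group-housed replicate 2 it was -0.04, and without group-housed replicate 1 it was -0.46. Tacr3 rested on 132 and 125 counts in isolated and 102 and 172 counts in group-housed libraries, the fewest of the 4 genes, and the 95% Poisson intervals of the group-housed libraries, 4.05 to 6.04 and 5.73 to 7.77 CPM, overlapped.

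The NK2 receptor gene Tacr2 (ENSMUSG00000020081) had 5 and 4 counts in isolated and 1 and 1 counts in group-housed libraries. The 95% Poisson intervals were 1.62 to 11.7 and 1.09 to 10.2 counts in the isolated libraries and 0.0253 to 5.57 counts in each group-housed library. The intervals overlapped, and Tacr2 was below the filter and not tested.

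Each precursor was also set against the receptor its main peptide prefers. Tac2 counts were 29.6 and 38.3 times the Tacr3 counts in isolated replicates 1 and 2, against 25.1 and 17.9 times in group-housed replicates 1 and 2. Both isolated libraries had the higher ratio. The log2 ratio was 5.07 ± 0.263 in isolated and 4.41 ± 0.342 in group-housed libraries (SD, n = 2 each). The difference of 0.67 gave p = 0.333 in a 2-sided exact permutation test, the smallest p that 2 against 2 libraries allow. Omission of group-housed replicate 2 brought the difference to 0.43, and omission of group-housed replicate 1 to 0.91. Tac1 counts were 0.264 and 0.411 of the Tacr1 counts in isolated replicates 1 and 2, against 0.296 and 0.445 in group-housed replicates 1 and 2. The groups overlapped, with a log2 difference of -0.14 (2-sided exact permutation p = 0.667), which omission of isolated replicate 1 turned to 0.18 and omission of group-housed replicate 2 to 0.15.

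**Figure D3:**
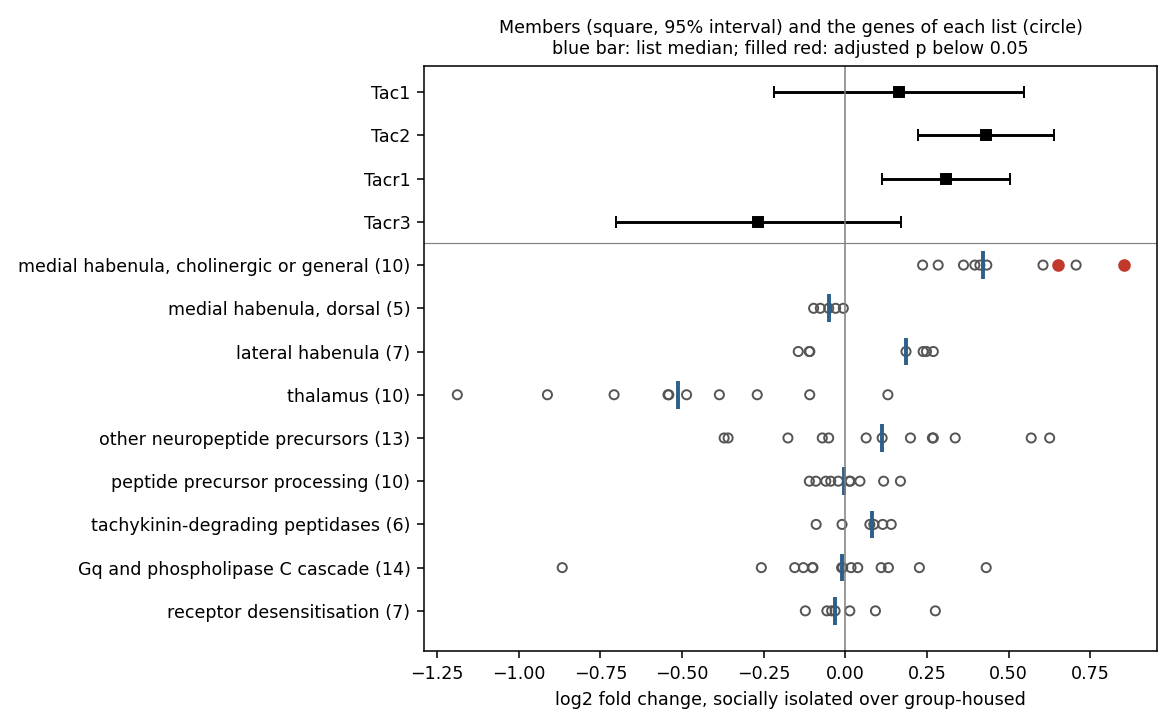
Log2 fold change, socially isolated over group-housed, of the 4 tachykinin genes (squares, with 95% intervals from the edgeR fit) and of the tested genes of each list (circles, with the number of genes in brackets). The blue bar is the list median. Tac2, at 0.43, lay beside the median of the cholinergic or general medial habenula list, at 0.42, and filled red circles are the 2 genes that passed.

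Markers of the tissues around the dissection were read beside these values. Defining markers of the labelled tissue were present in every library, and the summed level of 7 lateral habenula markers was 1278 to 1400 CPM in isolated and 1276 to 1366 CPM in group-housed libraries. Their median log2 fold change was 0.19 (4 higher, 3 lower), and Gpr151, an orphan receptor and the most abundant of them, had a log2 fold change of 0.19. The sums hide opposite directions. Of the 7 genes, 4 were higher and 1 lower in both isolated libraries than in both group-housed ones (17.4% and 16.3% of all genes tested). At an unadjusted edgeR p below 0.05 stood 3 of the 7, against 5.09% of all genes, and 0 were called. These counts are a description only. Medial habenula transcripts were also abundant. A list of 10 cholinergic or general medial habenula markers summed to 1840 to 1892 CPM in isolated and 1313 to 1477 CPM in group-housed libraries.

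The fold change of Tac2 was close to the median of that list. All 10 of its genes were higher in both isolated libraries than in both group-housed ones, as were 17.4% of all genes tested. The median log2 fold change of the 10 was 0.42 (0.24 at the lowest and 0.85 at the highest). The list was chosen with earlier results of these data known, so its counts are a description only. Its members Chrnb3, a nicotinic receptor subunit gene, and Slc5a7, the choline transporter gene, are the 2 genes that passed over all genes (log2 fold change 0.85 and 0.65, each with edgeR adjusted p = 0.0227). Nwd2, the most abundant member, had a log2 fold change of 0.36 (edgeR adjusted p = 0.369), and its exons overlap another annotated gene. A larger amount of medial habenula tissue and more RNA per cell cannot be told apart in these bulk samples.

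Relative to the median of these 10 markers, the log2 level of Tac2 was -0.20 and 0.12 in isolated replicates 1 and 2 and -0.05 and 0.10 in group-housed replicates 1 and 2. The groups overlapped, and the difference was -0.06, less than the pooled SD of 0.18 (2-sided exact permutation p = 1). Set against a list of 5 dorsal medial habenula markers in place of those 10, the difference for Tac2 was 0.48. In the dorsal list 0 genes were higher and 5 lower (median log2 fold change -0.05), and its summed level was 342.8 to 370.3 CPM in isolated and 342.1 to 397 CPM in group-housed libraries. Its most abundant member was the calcium-binding protein gene Calb1, with a log2 fold change of -0.10. The 2 lists of the same nucleus thus had different medians. That difference was not tested.

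Tac1, the substance P gene of the dorsal part, was higher in replicate 2 of each group. Its log2 level, centred on the mean of the 4 libraries, was -0.14 and 0.31 in isolated replicates 1 and 2 and -0.29 and 0.12 in group-housed replicates 1 and 2. The dorsal list had centred medians of -0.10 and 0.08 in isolated and -0.03 and 0.13 in group-housed replicates 1 and 2, and it too was higher in replicate 2 of each group. Within it, Calb1 was lower in isolated replicate 2 (111.4 against 129.8 CPM) and Il18 in group-housed replicate 2 (21.3 against 21.9 CPM). A list of choroid plexus markers was also higher in replicate 2, with centred medians of -0.17 and 0.26 in isolated and -0.57 and 0.78 in group-housed replicates 1 and 2. So were ependyma markers, given below, and those of hippocampus and cortex. The latter had 0.10 and 0.13 in isolated and -0.15 and -0.10 in group-housed replicates 1 and 2. The pattern was thus not particular to 1 tissue, and the part of any of these lists in the values of Tac1 was not tested. Relative to the 10 cholinergic or general markers, Tac1 was lower in isolated libraries by a mean log2 difference of -0.32, and relative to the dorsal list it was higher by 0.23. The first of these differences was less than its pooled SD of 0.397 (2-sided exact permutation p = 0.667).

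Tacr1 had centred log2 levels of 0.24 and 0.06 in isolated replicates 1 and 2 and -0.06 and -0.24 in group-housed replicates 1 and 2. The centred medians of the cholinergic or general list were 0.27 and 0.23 in isolated and -0.13 and -0.34 in group-housed replicates 1 and 2, so the libraries stood in the same order. That order was not particular to this list. A list of 6 tachykinin-degrading peptidases had it too, with smaller values. Its centred medians were 0.05 and 0.0076 in isolated and -0.02 and -0.03 in group-housed replicates 1 and 2. Tacr3 had centred levels of -0.08 and -0.16 in isolated and -0.09 and 0.33 in group-housed replicates 1 and 2. A list of 10 thalamus markers, lower in isolated libraries for 9 genes (median log2 fold change -0.51), had centred medians of -0.05 and -0.45 in isolated and 0.15 and 0.36 in group-housed replicates 1 and 2. Group-housed replicate 2 was the highest library for both Tacr3 and the thalamus list. The order of the remaining libraries was not set for Tacr3, because their Poisson intervals overlapped. These were 4.21 to 5.96 and 3.93 to 5.62 CPM in isolated replicates 1 and 2, and 4.05 to 6.04 CPM in group-housed replicate 1. The thalamus list put both isolated libraries below both group-housed ones, whereas Tacr3 overlapped between the groups. The part of these lists in the values of Tacr1 and Tacr3 was not tested.

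**Figure D4:**
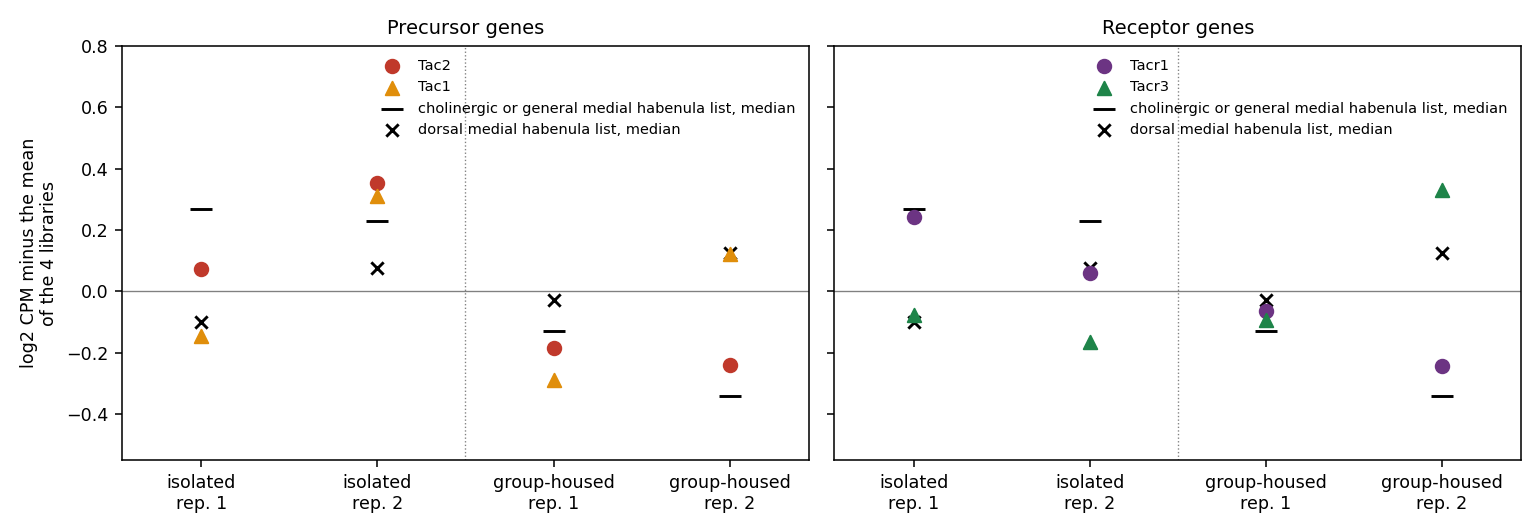
Log2 CPM minus the mean of the 4 libraries for Tac2 and Tac1 (left) and Tacr1 and Tacr3 (right), with the medians of 10 cholinergic or general (bars) and 5 dorsal (crosses) medial habenula markers. Isolated libraries stand left of the dotted line. Tac2 and Tacr1 lay above their mean in both isolated libraries, and Tac1 was higher in replicate 2 of each group.

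Other marker lists had no called gene. Each of the 5 markers of ependyma was higher (median log2 fold change 0.79), with centred medians of -0.24 and 0.91 in isolated replicates 1 and 2 and -0.37 and -0.31 in group-housed replicates 1 and 2. Isolated replicate 2, where Tac1 and Tac2 were highest, was thus the library richest in ependymal transcripts, and the part of that in their values was not tested. Of the markers tested, those of hippocampus and cortex had a median of 0.35 (5 of 8 higher) and interneuron markers of 0.10 (2 of 3 higher). The medians were -0.11 for astrocytes (1 of 5 higher), -0.21 for oligodendrocytes (0 of 5 higher), -0.15 for microglia (0 of 5 higher), 0.06 for endothelium (3 of 5 higher) and -0.49 for choroid plexus (1 of 4 higher). No listed marker was at 0 in all libraries.

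Genes that make, remove or answer tachykinins were read from lists chosen with earlier results of these data known. None of their members passed over all genes. Of 10 genes of peptide precursor processing 5 were higher and 5 lower, and their log2 fold changes had a median of -0.0047. Pcsk1, a prohormone convertase, had 122.0 and 122.2 CPM in isolated and 105.4 and 111.8 CPM in group-housed libraries (log2 fold change 0.17, edgeR adjusted p = 0.868). Pam, which amidates the C-terminal glycine of peptides such as the tachykinins, had a log2 fold change of 0.12 (edgeR adjusted p = 0.979), and its exons overlap another gene. Of 6 peptidases that can degrade tachykinins 4 were higher and 2 lower (median 0.08). Prep, prolyl endopeptidase, had a log2 fold change of 0.14 and Mme, neprilysin, of 0.11 (edgeR adjusted p = 0.974 and 0.996).

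In the Gq and phospholipase C cascade 6 of 14 genes were higher and 8 lower, and the median log2 fold change was -0.0098. The inositol trisphosphate receptor gene Itpr1 had 168.4 and 144.8 CPM in isolated replicates 1 and 2, against 183.7 and 190.6 CPM in group-housed replicates 1 and 2 (log2 fold change -0.26, edgeR adjusted p = 0.780). Isolated replicate 2 was its lowest and group-housed replicate 2 its highest library, the same extremes as for the thalamus markers. Itpr3, of the same receptor family, had 7.05 and 7.36 CPM in isolated replicates 1 and 2, against 4.39 and 6.22 CPM in group-housed replicates 1 and 2 (log2 fold change 0.43, edgeR adjusted p = 0.974). The exons of both genes overlap other annotated genes. Of 7 genes of receptor desensitisation 3 were higher and 4 lower (median -0.03). Arrb2, beta-arrestin 2, had 59.5 and 55.4 CPM in isolated and 48.4 and 46.5 CPM in group-housed libraries (log2 fold change 0.28, edgeR adjusted p = 0.570), and Rab5a, an early endosome GTPase gene, had a log2 fold change of -0.12 (edgeR adjusted p = 0.979). The exons of Arrb2 and Rab5a each overlap another annotated gene.

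Among 13 tested precursors of other neuropeptides 8 were higher and 5 lower, 0 were called, and the median log2 fold change was 0.11. The list held 20 genes, and the remaining 7 were below the filter. Cck, cholecystokinin, had 31.4 and 32.4 CPM in isolated replicates 1 and 2, against 39.4 and 42.3 CPM in group-housed replicates 1 and 2 (log2 fold change -0.36, edgeR adjusted p = 0.369). Sst, somatostatin, had 16.9 and 20.9 CPM in isolated replicates 1 and 2, against 10.6 and 14.7 CPM in group-housed replicates 1 and 2 (log2 fold change 0.57, edgeR adjusted p = 0.729). For Cck both isolated libraries were lower and for Sst both were higher. Tac2, at a mean of 165 CPM in isolated libraries, differed by a log2 fold change of 0.43, between those of Cck and Sst.

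The genes whose pattern over the 4 libraries came closest to each member were found by the root mean square difference of centred log2 CPM, among 7664 genes with a mean of at least 5 CPM and no overlapping exon. Within 0.05 lay 5 genes for Tac1, 1 for Tac2, 19 for Tacr1 and 4 for Tacr3. For Tac2 the closest were Rtn4rl2, a Nogo receptor homologue gene (0.03), Col8a2, a collagen gene (0.05), and Foxo6, a forkhead transcription factor gene (0.06). For Tac1 they were Nxpe4 (0.0085), Flnc, filamin C (0.03), and Nme5 (0.04). St3gal1, a sialyltransferase gene (0.02), Nrp2, the semaphorin co-receptor neuropilin 2 (0.03), and Gm13373 (0.03) were closest to Tacr1. Stum (0.03), Hr, the hairless corepressor gene (0.04), and Alpk1, an alpha kinase gene (0.04), were closest to Tacr3. Rtn4rl2 had 27.1 and 31.4 CPM in isolated and 22.8 and 21.2 CPM in group-housed libraries (log2 fold change 0.41, edgeR adjusted p = 0.489), and Nrp2 had 307.8 and 278.5 CPM in isolated and 247.0 and 231.5 CPM in group-housed libraries (log2 fold change 0.29, edgeR adjusted p = 0.570). None of these 12 genes passed.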

How the data were processed

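RNA was taken up in Trizol and made into libraries with the TruSeq Stranded mRNA LT kit, per the labels' protocols. Tools listed in the submitters' processing notes, without roles, are TopHat2 2.1.1, HTSeq, edgeR and CASAVA, with the build GRCm38. The sources used here give neither the annotation release nor the strand setting of the counting. The authors deposited raw read counts per gene, which were used for every test, and a normalised signal, which equalled the count times a constant of the library (0.0387 to 0.0499) and served only as an alternative scaling.

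Symbols, coordinates and exon lengths came from GENCODE M21 (GRCm38), and 53360 of 53465 identifiers matched. CPM used TMM-scaled totals, and RPKM divided CPM by the union of annotated exons. The test was edgeR 4.0.16 (R 4.3.3, filterByExpr, glmQLFit, no covariate). Its code was also run on simulated counts, and no power at the members' fold changes was read from that run. The fit to the deposited counts gave a biological coefficient of variation of 7.20% and 6.55 prior plus 2 residual degrees of freedom. Standard errors are the log2 fold change over the square root of F. Centred levels used log2 CPM with a prior count of 2. Alternatives used DESeq2 1.42.0, edgeR's exact test, limma-voom (limma 3.58.1), other scalings and filters, and fits without 1 library. Replicates differed by more than counting noise (mean chi-square per gene 8.06 in isolated and 5.35 in group-housed pairs). The medians per gene were lower, at 1.62 in isolated and 1.14 in group-housed pairs. The Poisson intervals cover counting error only. The intervals of the log2 fold changes came from the edgeR fit and also include the spread between libraries.

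The members and the 18 lists were chosen with earlier results of these data known, and 5 genes stand in 2 lists. Named beside the 4 members, Tac4 and Tacr2 were, per pathway list, genes that passed and the 2 with the smallest p, per marker list genes that passed and the most abundant gene, and the 3 genes closest in pattern to each member. Of the marker lists, the most abundant gene is printed only for the habenula. An item of the Gq list is not reported here, and its list was counted without it.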

Additional observations from a re-analysis of the deposited data

How the results depend on the processing

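Tacr1 and Tacr3 kept their direction and stayed short of the threshold in all 13 alternatives. Without 1 library, the log2 fold change of Tac2 ranged from 0.28 to 0.56 and that of Tac1 from -0.083 to 0.38. Tac2 passed in DESeq2, in edgeR's exact test and with the replicate number as a block (log2 fold change 0.43 in each, blocked edgeR adjusted p = 0.0405), and without isolated replicate 1. The labels do not say whether a replicate number pairs libraries of the 2 groups. Deviations of same-numbered libraries from the group means correlated at 0.14 over 17528 genes, and the block changed no other member's call (Tacr1 adjusted p = 0.053). The count of called genes was 2, against 15 with no low-count filter, 51 in DESeq2, 82 in edgeR's exact test, 64 with the replicate block and 1 to 221 without 1 library, the highest without isolated replicate 1. With the dorsal marker list, the differences relative to medial habenula markers were 0.48 for Tac2 and 0.23 for Tac1, and without 1 library, with the main list, -0.22 to 0.099 and -0.63 to -0.01. The cause of these shifts was not tested. Fits without 1 library assume that the lone library varies like the others. Tacr3, Tacr2 and Tac4 had the lowest counts of the family at this depth. Overlap of their Poisson intervals does not exclude a difference, and Tacr2 and Tac4 were not tested.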
